A study of Mus musculus with 24 samples.

Results

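The mouse miRNAs mmu-miR-344b-3p, mmu-miR-384-5p, mmu-miR-873-5p, mmu-miR-551b-3p, mmu-miR-488-3p and mmu-miR-3099-3p, written without the species prefix from here on, were measured in whole eye, retina and sclera of mice with form-deprivation myopia. These 6 of the 696 mouse miRNAs on the array were taken by name. They belong to the 46 miRNAs that were detected on all 6 retina arrays and on none of the 6 sclera arrays, and were picked from those as the less studied ones. The retina and sclera signals therefore chose them, and their retina and sclera levels are given as a description.

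RNA came from C57BL/6J mice aged 34 days, an inbred laboratory strain. A diffuser had been worn over the right eye for 10 days from postnatal day 24, and the untreated left eye served as control. Whole eye gave 6 myopia and 6 control arrays, and retina and sclera gave 3 arrays titled myopia and 3 titled control each. The labels count 15 mice in the study, of which whole eye took 6 and retina and sclera took 9 each, without stating how many eyes went into an array or which arrays share an animal, so p-values measure only the spread between these samples. In retina and sclera the titles name the opposite arm to the source names and phenotype fields. The retina groups go by their titles here (titled myopia, titled control), and the direction of a retina difference is unsettled. In whole eye the title, source name and phenotype agreed, although a description sentence names the other arm. On each of the 3 slides the arms of a tissue lay in different columns, the same columns each time. Whole eye also lay in a different row from retina and sclera. Differences between arms or tissues thus cannot be told apart from array position.

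A miRNA is a short RNA that guides Argonaute proteins to messenger RNAs, mainly through the seed near its 5′ end, and lowers the output of the paired transcripts. The retina is neural tissue whose neurons and photoreceptors carry their own miRNA repertoire, while the sclera is the fibrous coat that remodels as the myopic eye elongates. miR-384-5p shares the seed of the miR-30 family and has been studied in synaptic plasticity in the rodent hippocampus. miR-488-3p is encoded within Astn1, the gene of a neuronal adhesion protein used by migrating neurons, and miR-344b-3p belongs to a family clustered with other miR-344 genes.

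The mature sequences are printed with the seed, bases 2 to 8, in capitals, because the seed shows which miRNAs could pair with the same transcripts. They are RefSeq sequences on GRCm38.p6, and all 6 names were matched, with miR-873-5p listed there as miR-873a-5p.
miR-344b-3p: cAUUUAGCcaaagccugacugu
miR-384-5p: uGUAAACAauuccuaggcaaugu
miR-873-5p: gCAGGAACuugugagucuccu
miR-551b-3p: gCGACCCAuacuugguuucag
miR-488-3p: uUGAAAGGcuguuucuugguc
miR-3099-3p: uAGGCUAGagagagguugggga
No seed was shared between any pair of the 6, so they form a set by detection and not by sequence. The purine share was 77.3% in miR-3099-3p and 42.9% to 52.2% in the other 5.

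The 6 lie at 6 separate places on 5 chromosomes in GRCm38.p6. miR-344b-3p is at chr7:61790522-61790543 on the minus strand, within the span of the long non-coding RNA gene A230057D06Rik. miR-384-5p is at chrX:105344332-105344354 on the minus strand, where the gene table lists no host gene. miR-873-5p is at chr4:36668556-36668576 on the minus strand within the span of Lingo2, which encodes a neuronal membrane protein with leucine-rich repeats. miR-551b-3p is at chr3:29416879-29416899 on the plus strand within Egfem1, a gene named for its EGF-like and EMI domains. miR-488-3p is at chr1:158505689-158505709 on the plus strand, within the spans of Astn1 and the long non-coding RNA gene Gm37679. miR-3099-3p is at chr7:6803638-6803659 on the plus strand within Usp29, which is named as a ubiquitin-specific peptidase. The gene table gives spans of genes only, so intron or exon position was not determined.

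A signal assigned to miR-344b-3p cannot be told apart from miR-344-3p, because each of its probes pairs with both. The longer probe covers 17 bases, printed here in capitals, and these are the same letters in the 2 miRNAs.
miR-344b-3p: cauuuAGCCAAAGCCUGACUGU
miR-344-3p: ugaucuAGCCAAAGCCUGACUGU
Of 8 miR-344 family 3p names, these 2 were the ones that paired fully with that probe. Their seeds differ, since the shared letters lie toward the 3′ end.

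Among the array's miRNAs with a sequence in the RefSeq table used, the seed of miR-384-5p occurs in 3 others, miR-30a-5p, miR-30c-5p and miR-30e-5p, whose letters differ from it after the seed. miR-30b-5p and miR-30d-5p of the same family are also on the array and were not compared here.
miR-384-5p: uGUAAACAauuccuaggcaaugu
miR-30a-5p: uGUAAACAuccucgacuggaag
miR-30c-5p: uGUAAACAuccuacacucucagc
miR-30e-5p: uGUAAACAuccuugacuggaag
Unlike miR-384-5p, these 3 were detected on every array of the 3 tissues. Their log2 level was 0.60, 0.76 and 0.71 lower in whole eye than in retina for miR-30a-5p, miR-30c-5p and miR-30e-5p, in that order, against 1.33 for miR-384-5p.

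Levels are given as log2 scaled signal, the Agilent processed signal of a miRNA divided by the 75th percentile of the array's 237 miRNAs that were detected everywhere, so that 0 stands at that percentile. Replicate arrays correlated at r of 0.930 to 0.998, and 274 to 401 miRNAs were detected per array. The tissue labels were checked with marker miRNAs given as summed scaled signal. The photoreceptor and sensory markers miR-183-5p, miR-96-5p and miR-182-5p summed to 99.7 to 132 on the retina arrays, against 1.61 to 9.56 on the sclera arrays. The neuronal markers miR-124-3p, miR-9-5p and miR-128-3p summed to 86.9 to 93.6 on the retina arrays, against 1.09 to 6.33 on the sclera arrays. The 5 fibroblast and mesenchymal markers summed to 0.0957 to 0.331 on the retina arrays, against 15.7 to 19.4 on the sclera arrays. Retina and sclera were thus separated by these 3 lists, with a low level of retinal markers left on the sclera arrays. The cornea and lens list did not separate them, at 0.0862 to 4.54 on the retina arrays and 1.10 to 8.81 on the sclera arrays. The titled control retina arrays alone spanned that retina range. Whole-eye arms overlapped in the sum of the photoreceptor and sensory list, at 46.5 to 57.3 on myopia arrays and 48.1 to 51.8 on control arrays, and in the sum of the neuronal list, at 42.4 to 46.8 on myopia arrays and 41.1 to 44.2 on control arrays. The pigment epithelium list (19.8 to 24.2 and 20.4 to 22.8), the cornea and lens list (9.00 to 16.03 and 11.6 to 17.2), the fibroblast and mesenchymal list (1.57 to 3.18 and 1.59 to 2.95), the skeletal muscle list (0.794 to 0.966 and 0.932 to 1.39) and the erythrocyte list (0.385 to 0.516 and 0.362 to 0.801) overlapped as well between whole-eye myopia and control arrays. The skeletal muscle list overlapped least, since 5 of 6 myopia arrays were below every control array.

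In retina, 5 of the 6 miRNAs had nearly the same level on every array. miR-344b-3p, of the brain-linked miR-344 family, was at -2.19, -2.15 and -2.08 on the titled myopia arrays, against -2.03, -2.18 and -2.15 on the titled control arrays. miR-384-5p, the miR-30 seed relative, was at -2.18, -2.13 and -2.00 on the titled myopia arrays, against -2.01, -2.08 and -2.19 on the titled control arrays. For both miRNAs the titled arms overlapped fully and no array stood apart. miR-873-5p, from the Lingo2 locus, was at -3.68, -3.59 and -3.46 on the titled myopia arrays, against -3.62, -3.56 and -3.60 on the titled control arrays. miR-551b-3p, from the Egfem1 locus, was at -1.35, -1.30 and -1.16 on the titled myopia arrays, against -1.35, -1.20 and -1.25 on the titled control arrays. miR-488-3p, from the Astn1 locus, was at -4.45, -4.36 and -4.29 on the titled myopia arrays, against -4.45, -4.34 and -4.38 on the titled control arrays. The titled arms of these 3 overlapped as well. Over the 6 retina arrays the SD of these 5 miRNAs was 0.06 to 0.08.

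miR-3099-3p, a miRNA of the Usp29 locus, was the exception in retina, with an SD of 1.12. Its processed signal was 1312, 1448 and 948 on the titled myopia arrays, against 1256, 335 and 225 on the titled control arrays. On the log2 scale these were -0.43, -0.63 and -0.74 in the titled myopia group, against -0.36, -2.34 and -2.99 in the titled control group. Titled control replicate 1 thus lay above every titled myopia array, and the other 2 titled control arrays lay well below all 3. The lens and cornea marker miR-184-3p also varied between these arrays, at -0.84, -1.04 and -0.93 on the titled myopia arrays, against -3.52, 0.40 and 2.18 on the titled control arrays. It was thus lowest where miR-3099-3p was highest, and its part in the miR-3099-3p values was not tested.

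None of the 6 was detected in sclera. The highest sclera signal was 11.8 for miR-3099-3p and 9.78 for miR-551b-3p, and for miR-488-3p the 6 sclera signals ran from -2.32 to 0.489 after background subtraction. The lowest retina signal of any of the 6 was 73.8, for miR-488-3p on titled control replicate 1. Of 144 values for the 6 miRNAs, 20 were at or under the level of -7.69 that was used as a floor, and all 20 were from sclera. Since sclera gives only a bound, retina was at least 35.2-fold higher than sclera for miR-344b-3p, at least 37.3-fold for miR-384-5p, at least 14.1-fold for miR-873-5p, at least 48.7-fold for miR-551b-3p, at least 8.15-fold for miR-488-3p and at least 44.8-fold for miR-3099-3p. Whole eye, in turn, was above sclera by at least 2.29-fold for miR-488-3p, detected on 7 of 12 whole-eye arrays, to at least 15.9-fold for miR-551b-3p. These bounds start from the lowest signal detected for any miRNA on each sclera array, 4.03 to 6.60. Where the miRNA's own undetected signal on that array was higher, that signal was taken as limit instead. The lowest detected signal need not be the limit for every miRNA. miR-488-3p was undetected at 18.6 on whole-eye myopia replicate 5, where the lowest detected signal of any miRNA was 9.27. Retina over sclera was 17.6-fold to 22.6-fold for the photoreceptor and sensory markers and 9.84-fold to 30.0-fold for the neuronal markers, which were detected in sclera. The smaller bounds belong to miR-488-3p and miR-873-5p, which had the lowest retina signals of the 6 and so the least room above the floor. The word restricted therefore means here that no signal was detectable beside sclera background, and no other organ was measured.

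By retina signal the 6 lay away from the edge of the detection rule, while by sclera signal not all of them did. Just outside it, 16 miRNAs were detected on 5 of 6 retina arrays and no sclera array, of which miR-16-1-3p had the highest minimum retina signal, 28.2. Another 5 miRNAs were detected on all 6 retina arrays and 1 of 6 sclera arrays. Their highest sclera signals ran from 7.90 for miR-99b-3p to 25.2 for miR-300-5p, with 10.8 for miR-139-3p. These values are to be read beside 73.8, the lowest retina signal, and 11.8, the highest sclera signal, of the 6. The undetected 11.8 of miR-3099-3p thus lay above the highest sclera signals of miR-139-3p and miR-99b-3p.

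**Figure D1:**
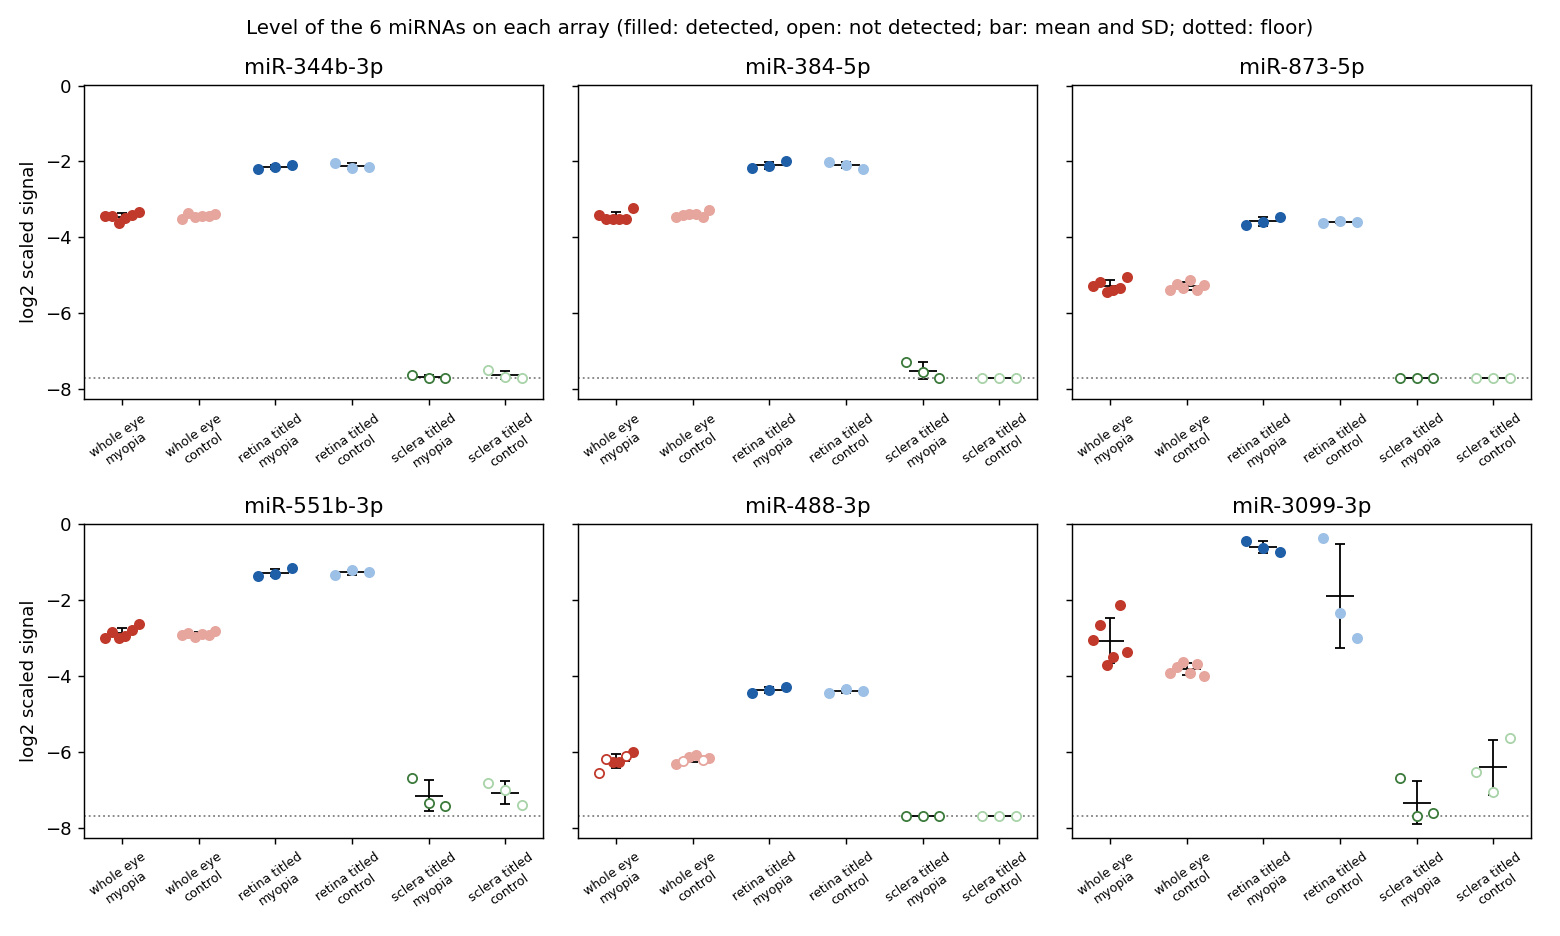
Log2 scaled signal of each miRNA (vertical axis) in the 6 groups (horizontal axis), 1 point per array, filled where detected and open where not, with the mean and SD as bars and the floor of -7.69 dotted. By group mean, retina lies above whole eye and whole eye above sclera for each miRNA. miR-3099-3p is the one with a wide spread within retina and whole eye, and its arrays overlap. Its retina titled control replicates 2 and 3 are at -2.34 and -2.99, below whole-eye myopia replicate 5 at -2.12.

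The opposite strands of the hairpins were seldom detected. miR-384-3p was detected on 3 of 6 retina arrays and on no whole-eye or sclera array, with a mean retina level of -6.33. miR-488-5p and miR-3099-5p were detected on no array. The opposite strands of the other 3 miRNAs were not analysed here.

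In whole eye, 5 of the 6 miRNAs were detected on all 12 arrays, and miR-488-3p on 7 of 12. miR-344b-3p was at -3.61, -3.44 and -3.33 (lowest, median and highest) on the myopia arrays, against -3.52, -3.44 and -3.35 on the control arrays. miR-384-5p was at -3.53, -3.51 and -3.23 on the myopia arrays, against -3.47, -3.40 and -3.29 on the control arrays. The arms of both miRNAs overlapped over nearly their whole range. miR-873-5p was at -5.44, -5.31 and -5.05 on the myopia arrays, against -5.39, -5.29 and -5.13 on the control arrays. miR-551b-3p was at -3.01, -2.90 and -2.64 on the myopia arrays, against -2.97, -2.90 and -2.80 on the control arrays. miR-488-3p was at -6.55, -6.22 and -5.99 on the myopia arrays, against -6.32, -6.18 and -6.07 on the control arrays. Myopia arrays thus spread slightly wider than control arrays, on both sides of them. Myopia replicate 6 was the highest of the 12 arrays for each of these 5 miRNAs. Myopia replicate 3 was the lowest for miR-344b-3p and miR-873-5p. Spots of 1 probe varied with a median CV of 10.3% on replicate 6 and 16.4% on replicate 3. The part of these arrays in the wider spread was not tested. miR-488-3p was called detected on 3 of 6 myopia and 4 of 6 control arrays, at a processed signal of at most 24.6 over all 12, close to the limit of the array.

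Relative to retina, each miRNA was lower in whole eye, where retinal RNA is mixed with that of the other ocular tissues. Fewer retinal cells and less of the miRNA per cell cannot be told apart in such bulk samples. The whole-eye level was 40.3% of the retina level for miR-344b-3p, a log2 difference of -1.31 ± 0.03 (SE, n = 12 and 6). It was 39.8% for miR-384-5p (-1.33 ± 0.04), and these 2 did not differ beyond their errors. miR-551b-3p stood at 32.7% of its retina level (-1.61 ± 0.04) and miR-873-5p at 30.9% (-1.70 ± 0.05), and these neighbours differed by less than the sum of their SE. miR-488-3p was at 28.1% (-1.83 ± 0.05). miR-3099-3p was at 21.9% (-2.19 ± 0.49), and its error reaches the value of miR-488-3p. These SE count arrays, although whole eye took 6 mice for its 12 arrays. The same arrays gave every miRNA, so the errors are not independent and the order of the miRNAs was not tested.

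The median of the 6 differences was -1.65, against -1.71 for the other 40 miRNAs that met the same detection rule, with a range of -4.08 to 0.32 in those 40. Among all 329 miRNAs detected on every retina array the median was -0.74. The photoreceptor and sensory markers were at 42.6% to 51.5% of their retina level in whole eye and the neuronal markers at 39.4% to 48.9%, so miR-344b-3p and miR-384-5p fell at the lower end of those marker values and the other 4 below them. Of the 46 miRNAs meeting the rule, 13 were detected on all 12 whole-eye arrays, and 5 of these are among the 6 described here. The other 8 had a median difference of -1.38.

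The size of the whole-eye reduction depended on scaling and background, while it was below 0 for each of the 6 under each of the 6 other settings tried. The median of the 6 ran from -1.75 to -0.76, and relative to the median of the 329 it ran from -1.02 to -0.51. The order of the miRNAs was also not fixed. Normexp background correction here adds an offset of 50 to every spot. The main whole-eye signals were at most 24.6 for miR-488-3p and 46.1 for miR-873-5p. With normexp, miR-488-3p was at -0.28 and miR-873-5p at -0.48, the smallest reductions of the 6. With Agilent's total gene signal miR-488-3p was at -2.90, the largest.

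The comparison of myopic with control whole eyes asks whether these miRNAs differ between the deprived eye and its untreated fellow. Arm goes with array position on every slide, so the comparison cannot separate the arm from the position. None of the arrays compared chose the 6, although retina and sclera arrays entered the choice of the scaling set and the floor. With limma and Benjamini-Hochberg adjustment over 341 tested miRNAs, 32 passed at 0.05, which is 9.38% of those tested, 30 higher (8.8%) and 2 lower (0.587%) in myopia. None of the 6 did, while 1 of the 6, miR-3099-3p, had an unadjusted p under 0.05, as did 52 of all 341. The differences of miR-344b-3p, miR-384-5p, miR-873-5p, miR-551b-3p and miR-488-3p were -0.05 to 0.02 on the log2 scale, with SE of 0.05 to 0.08 and limma adjusted p of 0.952 to 0.999. The 95% interval of the difference was -0.14 to 0.09 for miR-344b-3p, -0.18 to 0.08 for miR-384-5p and -0.15 to 0.17 for miR-873-5p. It was -0.12 to 0.17 for miR-551b-3p and -0.22 to 0.14 for miR-488-3p. The arms of these 5 miRNAs thus differed by less than the spread between arrays.

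miR-3099-3p was the one with a sizeable difference between whole-eye arms. Its processed signal was 137, 202, 94.3, 129, 297 and 137 on the 6 myopia arrays, against 83.5, 83.5, 91.7, 106, 93.2 and 109 on the 6 control arrays. On the log2 scale the myopia arrays had a lowest value of -3.69, a median of -3.20 and a highest of -2.12, against -3.99, -3.84 and -3.62 on the control arrays. Myopia replicates 5 and 2 were the highest, and myopia replicate 3 lay within the range of the control arrays, so the arms overlapped. In comparison, every myopia array was above every control array for 25 of 341 miRNAs (7.33%), none of them among the 6.

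The estimate for miR-3099-3p in whole eye was 0.75 (SE 0.23, 95% interval 0.25 to 1.25), or 1.68-fold, with a limma adjusted p of 0.0681, which is rank 34 of 341 by p and short of the threshold. The call depended on the setting. It passed with scaling over all miRNAs (0.63, limma adjusted p = 0.0232), with a scaling set and floor from the whole-eye arrays (0.84, adjusted p = 0.0131), with quantile normalization (0.61, adjusted p = 0.0297) and with slide as a block (0.75, adjusted p = 0.0187). It also passed without myopia replicate 3 (0.88, limma adjusted p = 0.024), and did not pass without any other single array. With normexp background, which adds its offset of 50 to every spot, the difference was 0.34 with a limma adjusted p of 0.451. Of the skeletal muscle markers, miR-1a-3p was lower in whole-eye myopia by a log2 difference of -0.37 (limma adjusted p = 0.0365), miR-133a-3p differed by -0.38 (adjusted p = 0.102) and miR-206-3p by -0.0039 (adjusted p = 0.999). Their part in the miR-3099-3p difference was not tested. Within the 3 slides the miR-3099-3p difference was 0.65, 1.33 and 0.28, positive on each and without a pass on any (limma adjusted p = 0.13, 0.0759 and 0.852).

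In retina the same comparison had 396 tested miRNAs, and none passed with limma, 0% of those tested, while 18 had an unadjusted p under 0.05. For miR-344b-3p, miR-384-5p, miR-873-5p, miR-551b-3p and miR-488-3p the difference, titled myopia minus titled control, was -0.02 to 0.02 with a limma adjusted p of 0.994 each. Their 95% intervals lay between -0.22 and 0.22. miR-3099-3p differed by 1.30 (SE 0.71, 95% interval -0.51 to 3.10) with a limma adjusted p of 0.574. Titled control replicate 1 decided that result: without it the difference was 2.06 with a limma adjusted p of 0.0148, and 70 miRNAs passed instead of 0. Between arrays of the same slide, 1 per arm, miR-3099-3p differed by -0.07, 1.71 and 2.25 on slides 1, 2 and 3. Titled arms did not overlap for 19 of 396 miRNAs with titled myopia above (4.8%) and for 10 with titled myopia below (2.53%), and for none of the 6.

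**Figure D2:**
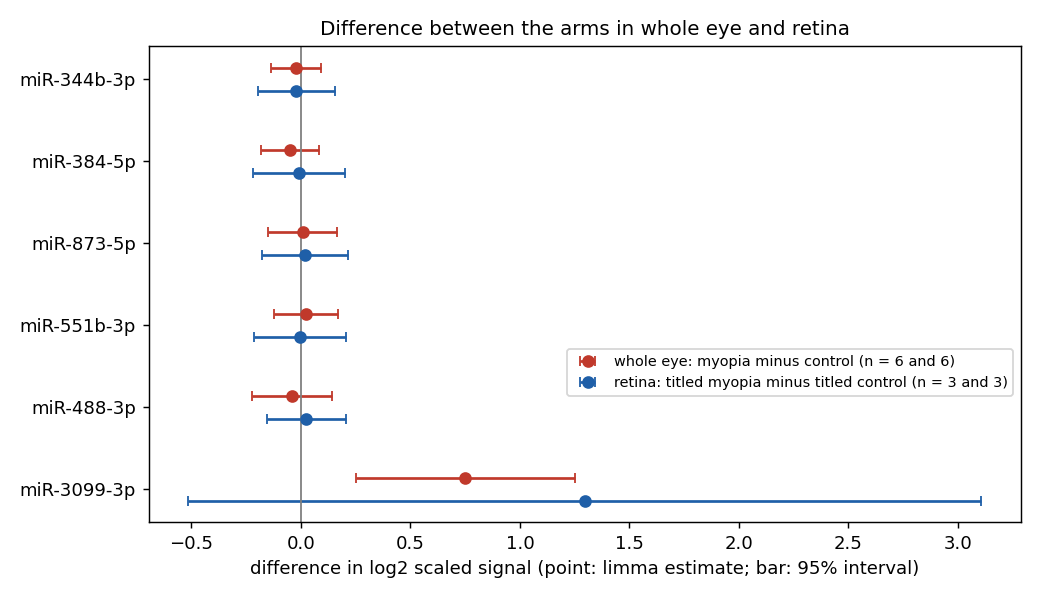
Difference between arms in log2 scaled signal (horizontal axis) for each miRNA, as limma estimates with 95% intervals, in whole eye (red, myopia minus control, n = 6 and 6) and in retina (blue, titled myopia minus titled control, n = 3 and 3). The 5 miRNAs other than miR-3099-3p sit within 0.05 of 0 in both tissues, while miR-3099-3p is at 0.75 in whole eye and 1.30 in retina with wide intervals.

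Whether the difference between arms itself differed between whole eye and retina was tested as an interaction over 410 miRNAs, and the outcome for miR-3099-3p depended on which label gives the retina arms. With the titles, 2 passed with limma (0.488%), both with the lower effect in whole eye, and 26 had an unadjusted p under 0.05. Neither of these 2 met the detection filter in whole eye. Their interaction values of -2.12 and -1.54 were their retina differences, 2.12 and 1.54, with the sign turned, so they measure no whole-eye response. None of the 6 passed under the titles, each with a limma adjusted p of 0.995. For miR-3099-3p the whole-eye effect minus the retina effect was -0.54 (SE 0.61, 95% interval -1.83 to 0.75). Without retina titled control replicate 1 it was -1.31 with a limma adjusted p of 0.0758. For the other 5 it was -0.06 to 0.03. With the retina arms taken from the phenotype field, a setting added after seeing the data, 70 miRNAs passed with limma (17.1%), all 70 with the higher effect in whole eye, and 95 had an unadjusted p under 0.05. miR-3099-3p was then 1 of the 70, with a whole-eye effect minus retina effect of 2.05 (SE 0.61, 95% interval 0.76 to 3.34) and a limma adjusted p of 0.0297. Without retina titled control replicate 1 it was 2.81 with a limma adjusted p of 6.93e-05, and 94 miRNAs passed. The other 5 were at -0.06 to 0.03 under the phenotype field as well, with limma adjusted p of 0.891 to 0.983. Since the titles and the phenotype field disagree, whether miR-3099-3p responded differently in the 2 tissues is unsettled.

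The spread of miR-3099-3p went together with a control measurement of the arrays. Each array carries bright corner spots that are not miRNA probes. Their mean signal was 303, 487, 239, 226, 415 and 272 on whole-eye myopia arrays 1 to 6, against 146, 156, 150, 147, 137 and 230 on the whole-eye control arrays. On the retina arrays it was 487, 576 and 373 with the title myopia, against 451, 196 and 248 with the title control. The whole-eye myopia arrays with the highest corner signals, replicates 2 and 5, were those with the highest miR-3099-3p, and retina titled control replicate 1 had both the high corner signal and the high miR-3099-3p. The order was not the same throughout. Whole-eye control replicate 6, at 230, had the lowest miR-3099-3p level of the 12 whole-eye arrays. Retina titled control replicate 3, at 248, had a lower miR-3099-3p level (-2.99) than replicate 2, at 196 (-2.34). Whole-eye myopia replicate 2, at 487, was below replicate 5, at 415 (-2.66 and -2.12). The part of these spots, and of array position, in the miR-3099-3p difference was not tested. miR-384-5p was level across the same arrays, at -3.51 on both whole-eye myopia replicates 2 and 5. Spots of 1 probe varied with a median CV of 16.4% and 10.3% on whole-eye myopia replicates 3 and 6, and without those 2 arrays the miR-3099-3p difference was 0.98 with a limma adjusted p of 0.0206.

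**Figure D3:**
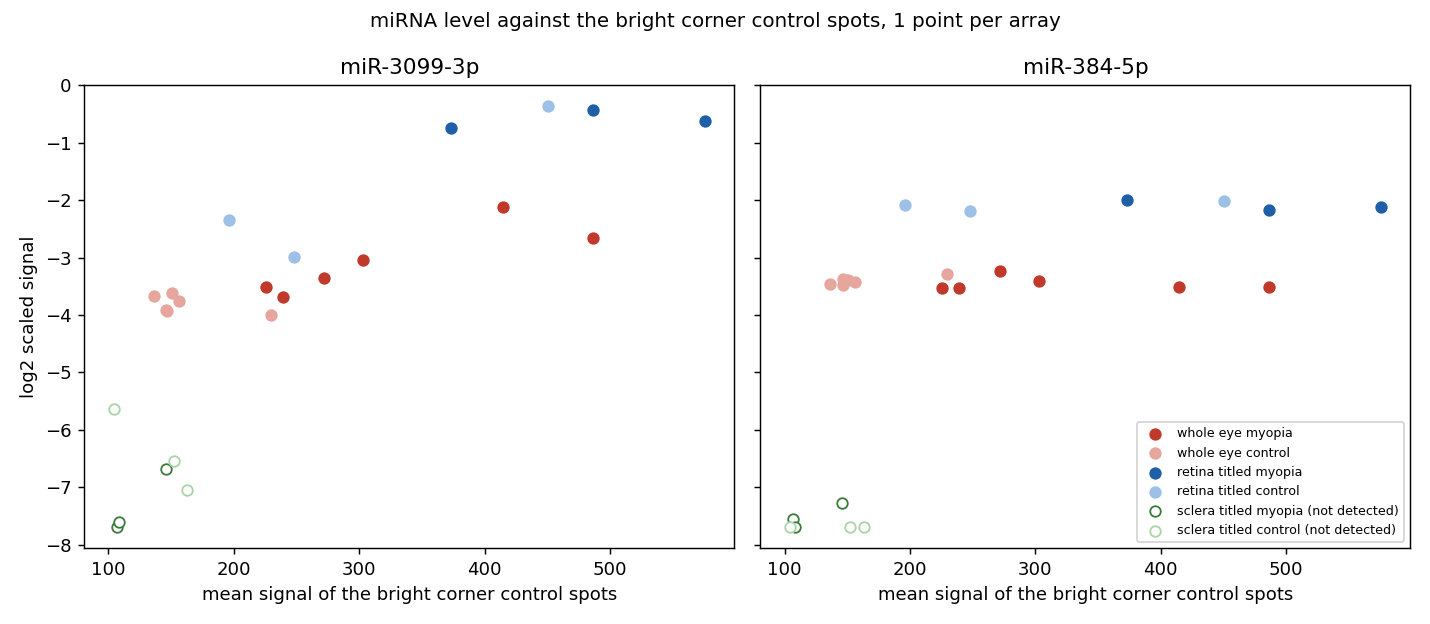
Log2 scaled signal of miR-3099-3p (left) and miR-384-5p (right) against the mean signal of the bright corner control spots (horizontal axis), 1 point per array, coloured by group, with open points not detected. The 4 retina arrays with a corner signal of 373 or more have miR-3099-3p levels of -0.74 to -0.36, against -2.34 and -2.99 on the other 2, while miR-384-5p lies between -2.19 and -2.00 on all 6.

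The probes of miR-3099-3p are the shortest of the 6. They are 14 and 15 bases long, against 16 to 20 for the other 5 and a median of 16 over all 1937 probes of the array, of which 581 had 14 bases or fewer. The part of the miRNA that pairs with each is printed in capitals, with miR-384-5p beside it, because the paired length differs.
shorter probe of miR-3099-3p: tccccaacctctct
longer probe of miR-3099-3p: tccccaacctctctc
miR-3099-3p with the part paired by the shorter probe: uaggcuagAGAGAGGUUGGGGA
miR-384-5p with the part paired by its shorter probe: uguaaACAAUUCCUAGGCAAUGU
The shorter miR-3099-3p probe pairs with the 3′ end and leaves the seed unpaired, and the longer one reaches the last base of the seed.

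The 2 probes of miR-3099-3p did not keep a fixed ratio. The longer over the shorter was 1.65, 1.51, 2.13, 1.66, 1.27 and 1.62 on whole-eye myopia arrays 1 to 6, against 2.09, 2.13, 1.98, 2.11, 2.25 and 2.06 on the control arrays. On the retina arrays it was 1.23, 1.20 and 1.31 with the title myopia, against 1.22, 1.90 and 2.14 with the title control. The ratio was lowest where the signal was highest, in each tissue. In retina alone the ratio ran from 1.20 to 2.14 for miR-3099-3p, a wider relative range than for the other 5. There it ran from 2.82 to 3.23 for miR-873-5p, 1.62 to 1.90 for miR-488-3p and 1.60 to 1.72 for miR-344b-3p. For miR-384-5p it was 3.39 to 3.63 and for miR-551b-3p 4.17 to 4.36. With whole eye included, an unsteady ratio was also seen for miR-873-5p and miR-488-3p. Over the same 18 arrays the ratio of the higher-numbered over the lower-numbered probe ran from 2.82 to 5.06 for miR-873-5p and from 1.62 to 2.31 for miR-488-3p, both with low whole-eye signals. It ran from 1.51 to 1.72 for miR-344b-3p, from 3.29 to 3.90 for miR-384-5p and from 4.02 to 4.73 for miR-551b-3p. Taken alone, the shorter miR-3099-3p probe gave a whole-eye difference of 0.99 with a limma adjusted p of 0.0434, and the longer one 0.62 with a limma adjusted p of 0.0939.

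Over the 18 whole-eye and retina arrays the 6 miRNAs fell into a tight set of 5 and miR-3099-3p. Pearson's r, across arrays that differ mainly by tissue, was 0.989 to 0.996 over the 10 pairs without miR-3099-3p and 0.800 to 0.822 over the 5 pairs with it. Among 323 other miRNAs detected on all retina arrays, the profile most like that of miR-344b-3p was miR-185-5p (r = 0.998), followed by miR-7a-5p and miR-495-3p. For miR-384-5p it was miR-369-5p, followed by miR-185-5p and miR-129-2-3p, each at r of 0.996. The 3 profiles most like miR-873-5p were miR-181c-5p, miR-7a-5p and miR-495-3p, at r of 0.995 each. miR-551b-3p was most like miR-7a-5p, miR-135b-5p and miR-9-3p, and miR-488-3p was most like miR-9-3p, miR-135b-5p and miR-300-5p, with r of 0.996 to 0.997. These values describe the shared drop between retina and whole eye.

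miR-3099-3p had other neighbours. The miRNAs most like it were miR-500-3p (r = 0.991), miR-101a-5p (r = 0.975) and miR-3072-5p (r = 0.971), none of which was among the neighbours of the other 5. In whole eye miR-500-3p differed by 0.42 and miR-3072-5p by 0.95 between myopia and control, the second with a limma adjusted p of 0.0268. miR-101a-5p was not tested there, since 0 of 12 whole-eye arrays detected it. Its whole-eye mean of -7.43 was near the floor of -7.69, so its r describes the retina values and the drop to whole eye.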

How the data were processed

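Total RNA of mouse whole eye, retina and sclera was labelled with Cy3 and hybridised to 24 single-colour Agilent miRNA arrays, with the design on the mm9 genome build per the file headers. The intensity values of each spot were deposited by the authors as written by Feature Extraction 11.0.1.1, per the file headers, with background subtracted in the processed signal. The deposited detection flag, an "other" value of 0 or 1, is Feature Extraction's per the file headers. The authors' deposited series table holds log2 values with column medians of 3.18 to 4.07. At bright probes they correlated with the scanner signals at r of 0.978 or more, but how they were scaled or centred stays unknown.

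Processed intensity was averaged over the 10 spots of a probe without outlier spots and summed over the 2 probes of each of the 6 miRNAs. Each array was scaled to the 75th percentile of the 237 miRNAs that all 24 arrays detected, then set to a floor of -7.69 on the log2 scale where lower, and logged. Arms were compared with limma 3.58.1 in R 4.3.3 over every miRNA detected on at least 2 in 3 arrays of 1 group of the comparison, without a slide or replicate term, with Benjamini-Hochberg adjustment at 0.05, and the procedure was tested on simulated data. Tables were read with Python 3.11.15 and pandas 2.3.3. Array numbers limit the precision.

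The 6 members, the marker lists and the tests were chosen with earlier results of these data known. miRNAs named besides the members are the other strands of their hairpins, relatives by seed or by miR-344 name, the tissue markers, and for each member the 3 with the highest Pearson r over whole-eye and retina arrays. miR-300-5p, miR-16-1-3p and the other miRNAs beside the detection limit were named after their values were seen. Other scaling, background, probe summary, filter, slide and replicate blocks, retina arm labels and left-out arrays were tried. Each left-out sample was removed in turn. Genome positions of the mature miRNAs are those of RefSeq on GRCm38.p6, and the mm9 positions of the probes were not used with them.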

Additional observations from a re-analysis of the deposited data

How the results depend on the processing

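None of the 6 miRNAs passed in whole eye in the reported comparison, and 1 of them, miR-3099-3p, did with scaling over all miRNAs, with a scaling set and floor from the compared arrays, with slide as a block, with the first probe alone and without whole-eye myopia replicates 3 and 6 together, the last 2 chosen after seeing the data. With quantile normalization 3 passed, where the median of all tested miRNAs moved to -0.12, 31 were higher and 62 lower, miR-873-5p turned to -0.45 (limma adjusted p = 0.0316) and miR-488-3p was at -0.57 (adjusted p = 0.00703). Leaving out 1 array at a time gave 0 to 1 of the 6 in whole eye, and 24 to 32 miRNAs in all. The whole-eye count of 32 was 93 with quantile normalization and 7 with normexp. In retina the count of 0 was 51 in a single fit of all 24 arrays, none of them among the 6, and 0 to 70 when 1 array was left out, with 0 to 1 of the 6. The count of 70 was without titled control replicate 1, and without titled myopia replicate 3 it was 1.

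The interaction count of 2 was 5 with quantile normalization and in a fit of all 24 arrays, 4 with Agilent's total gene signal, 1 with the compared arrays' own scaling set and with no filter, and 0 with normexp, the series value table and the stricter filter. Leaving out 1 array gave 0 to 32, with 32 without retina titled control replicate 1 and 14 without retina titled myopia replicate 3, and 0 of the 6 passed under each of these interaction settings. With the retina arms from the phenotype field, chosen after seeing the data, the interaction count was 70 and 1 of the 6 passed, miR-3099-3p, which turned to 2.05 (limma adjusted p = 0.0297) because the retina effect then enters with the opposite sign. The median whole-eye minus retina difference of the 6, -1.65, was -1.11 with scaling over all miRNAs, -1.42 with whole-eye and retina arrays alone in the scaling set, -1.19 with quantile normalization, -0.76 with normexp, -1.75 with total gene signal and -1.17 in the series value table, and -1.68 to -1.63 without 1 array. The cause of these shifts was not tested.

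Same-numbered arrays of the arms shared a number and a slide, and the labels tie no number to an animal, although the arms are fellow eyes. Their deviations correlated at -0.22 to 0.50 in whole eye and -0.47 to 0.63 in retina, and the same-numbered control array was the best match for 3 of 6 myopia arrays in whole eye and 2 of 3 in retina, so animal pairing was not settled. With the replicate number as a block, 36 miRNAs passed in whole eye and 0 in retina, and miR-3099-3p had a whole-eye limma adjusted p of 0.063. Low signal limits miR-488-3p and the shorter probe of miR-873-5p in whole eye, and all 6 miRNAs in sclera. That probe of miR-873-5p had 3 of 120 whole-eye spots well above background, against 112 of 120 for the longer one. Taking the retina arms from the phenotype field turns the sign of each retina difference, leaves the retina count at 0 and swaps the 19 miRNAs above with the 10 below.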
